A study of Mus musculus with 6 samples.

Results

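Potassium channel genes were taken from the RNA-seq gene table of AP1AR-DT_OE and control mouse brain as all rows whose symbol is Kcn followed by a family letter or letters and a number. *Kcne2* and *Kcnj13* were left out because they mark the choroid plexus. This gave 90 genes of 52390 listed, of which 79 had enough reads to be tested among 21844 tested genes. The set covers pore-forming subunits and the accessory subunits that bear the same prefix, and the symbols were the only basis of the choice.

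The mice compared were all male wild-type C57BL/6 and injected at 8 weeks of age with recombinant adeno-associated virus (AAV) in the medial prefrontal cortex. Control mice 1 to 3 received the empty vector. The AP1AR-DT_OE group, also 3 mice, received the vector with the human long non-coding RNA AP1AR-DT (AC109347.1), driven by the synapsin I promoter of neurons. The vector of both groups carries EGFP. The 3 AP1AR-DT_OE libraries carry no mouse number in the table and are called A, B and C. AP1AR-DT is a human gene with no row in the mouse table, and no value of it can be set against the labels. The comparison asks which transcripts differ between brains with and without the added RNA.

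Potassium channels let potassium leave the cell and so bring the membrane back to rest after an action potential. Voltage-gated channels open on depolarization, calcium-activated and sodium-activated channels open when those ions enter, inward rectifiers and tandem-pore leak channels set the resting potential, and accessory subunits change how fast and where the pores work. In glia, inward rectifiers take up the potassium that active neurons release.

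The 6 libraries held 42061721 to 54668294 counts, and the mitochondrial share was 7.20% to 9.86% in control and 5.75% to 6.80% in AP1AR-DT_OE mice. Marker genes of brain regions differed strongly between mice of one group. Levels are given as normalized CPM, which is each gene's counts as a share of its library, scaled with the TMM factors of edgeR. Control 3 was high in choroid plexus markers, with the 7 markers of the list summing to 3953 normalized CPM against 56.4 to 75.7 in the other 5 mice. Control 2 was high in hypothalamic markers, with a sum of 603 over 7 genes against 6.61 in control 1, 75.7 in control 3 and 11.4 to 29.0 in the AP1AR-DT_OE mice. *Oxt*, *Avp*, *Trh* and *Pomc* were highest in control 2, at 281, 184.5, 121 and 11.8. *Hcrt*, *Pmch* and *Agrp* were highest in control 3, at 11.3, 19.2 and 0.581. *Slc17a7*, the vesicular glutamate transporter of cortical projection neurons, was at 3.86 in control 2, 28.2 in control 1 and 233 in control 3, and at 87.2 to 463 in AP1AR-DT_OE mice. The excitatory neuron list holds 7 markers, and not all followed *Slc17a7*. *Rorb* was at 21.6, 31.4 and 41.0 in control and 20.5 to 22.1 in AP1AR-DT_OE mice. *Cux2* was at 33.2 to 38.1 in control and 40.3 to 54.7 in AP1AR-DT_OE mice. The 5 striatal markers summed to 164 in control 2 and 317 in control 3, and to 795 in control 1 and 504 to 1432 in AP1AR-DT_OE mice. No listed marker was at 0 in all mice. The labels call the tissue brain. The study's methods place it in cortex and its results name the medial prefrontal cortex, while these markers of other regions differed between mice as given. Results below are therefore also given without control mice 2 and 3, a choice made after the marker genes were seen.

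Levels of the potassium channel genes can be compared with one another only per length. On the scale of normalized CPM per kb of exon, averaged over the 6 mice, *Kcnj10* was the highest tested member, at 87.0. *Kcnj10* encodes the main inward rectifier of astrocytes. *Kcnab2*, a cytoplasmic beta subunit of voltage-gated channels, followed at 56.7 and the tandem-pore channel gene *Kcnk1* at 39.3. *Kcnj4*, *Kcnip2* and *Kcnip3* were next, at 33.2, 32.4 and 25.3 per kb. *Kcnc1*, which serves fast-spiking neurons, was at 23.8, *Kcna6* at 20.9, *Kcnf1* at 19.5, *Kcnh2* at 16.1 and *Kcnd2* at 14.7. Family leaders at lower levels were *Kcnmb4* at 9.35, the large-conductance pore gene *Kcnma1* at 6.54, the sodium-activated *Kcnt1* at 5.82, *Kcnn2* at 3.85, *Kcnu1* at 0.441 and *Kcne4* at 0.237 per kb. The lowest tested member was *Kcnq1*, the cardiac delayed rectifier gene, at 0.0713 per kb.

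**Figure D1:**
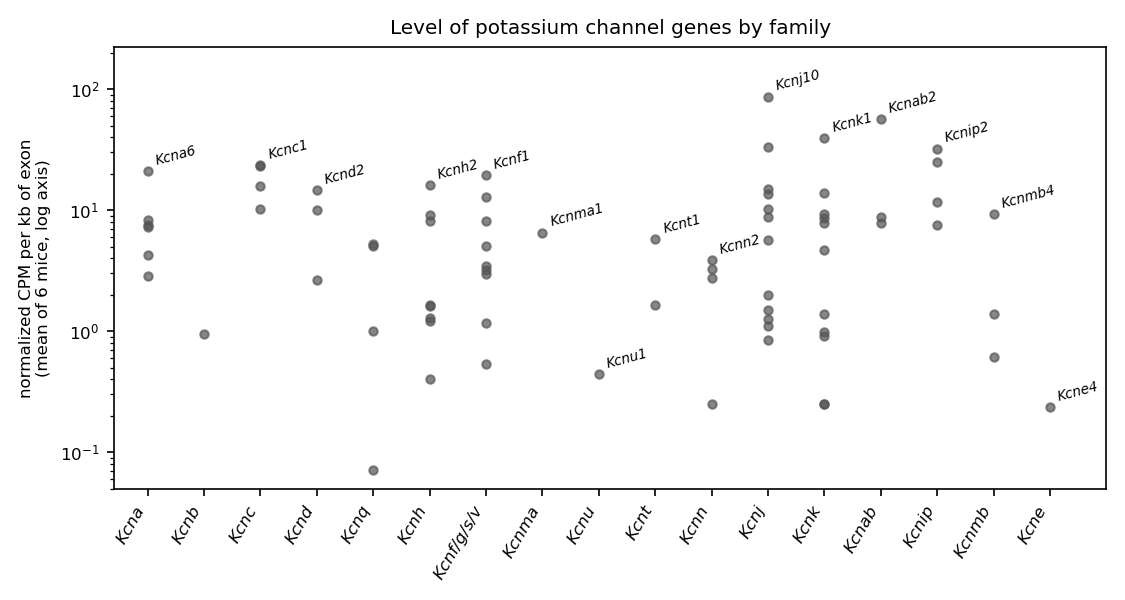
Level of 77 tested potassium channel genes by family, as normalized CPM per kb of exon (log axis, mean of the 6 mice), with the highest member of most families named. Kcnj10 stands highest at 87.0 and the single tested Kcne gene, Kcne4, is at 0.237.

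The 11 members that were not tested were *Kcna7*, *Kcna10*, *Kcne1*, *Kcne3*, *Kcnj1*, *Kcnj15*, *Kcnk15*, *Kcnk16*, *Kcnk18*, *Kcnmb3* and *Kcnv2*. *Kcna7*, *Kcne1*, *Kcnj1* and *Kcnmb3* had no count in any of the 6 mice. *Kcnk15* reached 159 counts in a single mouse and the other 6 had at most 36 counts in any mouse. None of the 11 passed the count filter with all 6 mice, and a difference in them was neither shown nor excluded.

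A differentially expressed gene (DEG) had an edgeR P under 0.05 and a log2 fold change above 0.32 in size, which are the thresholds of the study. By this rule 13 of 79 members (16.5%) were DEGs, against 12.2% of all tested genes. Of these, 9 were higher in AP1AR-DT_OE mice (11.4% of the members against 5.10% of all genes) and 4 were lower (5.06% against 7.15%). All members are protein-coding, and 13.45% of the protein-coding genes tested were DEGs, with 5.81% higher and 7.64% lower. No member had a Benjamini-Hochberg adjusted P under 0.05 in edgeR, where the lowest was 0.295 (0.0275% of all genes passed) and 15 members had an unadjusted P under 0.05, which 15.1% of all genes had. DESeq2 gave 4 of 79 members an adjusted P under 0.05, namely *Kcnf1*, *Kcng1*, *Kcnj10* and *Kcnd1*, against 2.08% of all genes. With limma-voom 0 members and 0.0183% of all genes passed. The median log2 fold change was 0.09 over the members and -0.01 over all tested genes, with 44 members above 0 and 35 below.

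With control mice 2 and 3 both left out, 6 of 84 members tested were DEGs (7.14%), against 7.59% of all genes, and *Kcnd1*, *Kcnip4* and *Kcnj10* were among them. The lone control was then assumed to vary like the AP1AR-DT_OE mice. Without control 1 alone, 25 of 81 members were DEGs (30.9%, against 3391 of 22643 genes), and without library C 20 of 80 were (15.6% of all genes were). Without library B 7 members were DEGs (8.64%), a share near the 6.33% of all genes. In bulk tissue, fewer cells of a type and less RNA per cell cannot be told apart.

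The groups did not overlap for 16 members (20.3%), with 11 higher and 5 lower in AP1AR-DT_OE mice. Among all tested genes 22.4% did not overlap, 10.4% higher in AP1AR-DT_OE mice and the rest, 2620 of 21844, lower. An exact two-sided permutation test of 3 against 3 mice cannot go below P = 0.1. It gave 0.1 for each of these 16 members, including 10 of the 13 DEGs, and 0.2 for *Kcnh3*, *Kcnh4* and *Kcnj11*.

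**Figure D2:**
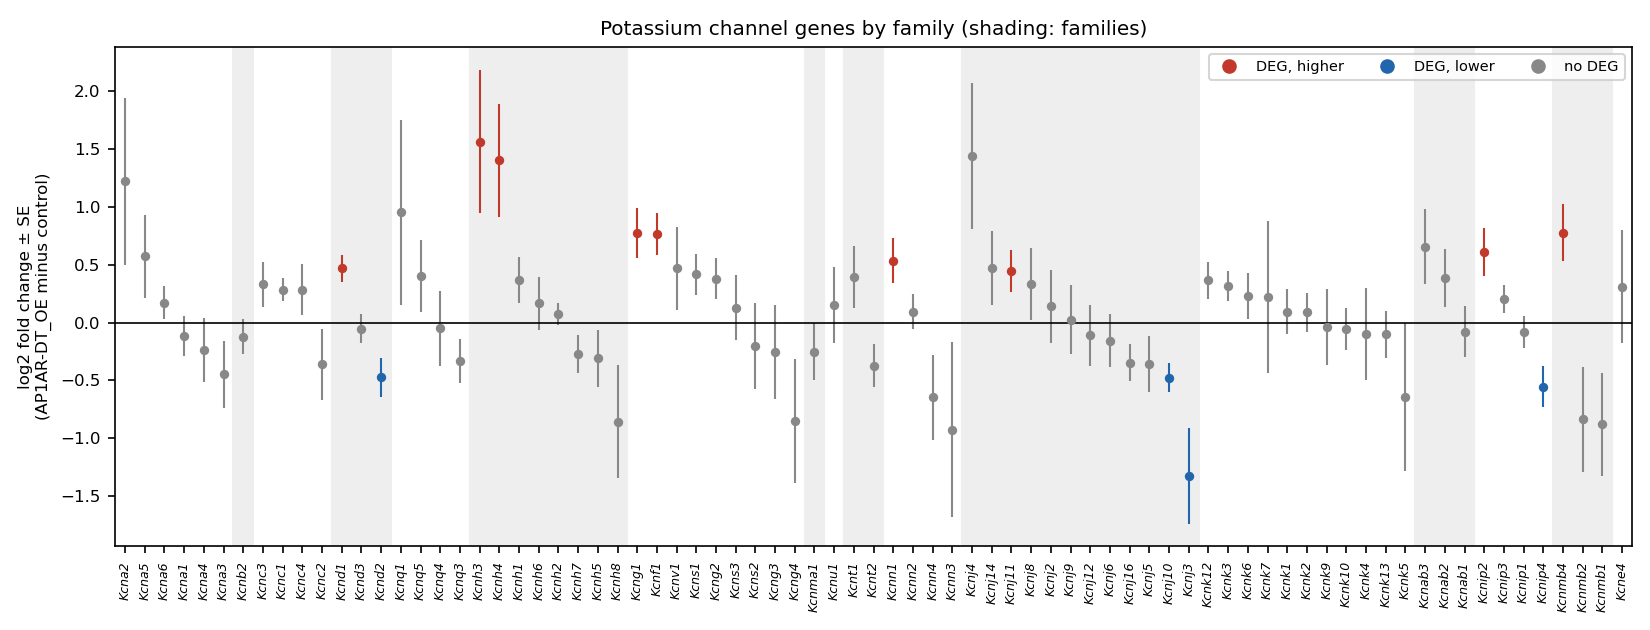
Log2 fold change of 77 of the 79 tested members (AP1AR-DT_OE minus control, bars are the standard error), grouped by family with alternate shading. Red points are the 9 DEGs that were higher, blue points the 4 that were lower, and families such as Kcnd, Kcnip and Kcnj hold members of both kinds.

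Among the voltage-gated pore genes, *Kcnf1* and *Kcng1* rose in AP1AR-DT_OE mice. Their products do not form channels alone and instead join subunits of other voltage-gated channels, changing the gating of the joint channel. *Kcnf1* (chromosome 12, 17172100 to 17176888, minus strand, GRCm38) had 83.7, 59.3 and 64.7 normalized CPM in control mice 1, 2 and 3 and 124, 137 and 92.9 in libraries A, B and C. All AP1AR-DT_OE values lay above all control values, with library C nearest to control 1. Its log2 fold change was 0.77 (SE 0.18, edgeR adjusted P = 0.295, range over the alternatives 0.0135 to 0.661).

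*Kcng1* (chromosome 2, 168260117 to 168281736, minus strand) had 33.3, 27.6 and 20.0 in control and 44.6, 55.4 and 38.0 in AP1AR-DT_OE mice. Again the groups did not overlap, and library B was highest for both genes. The log2 fold change of *Kcng1* was 0.77 (SE 0.22, edgeR adjusted P = 0.295, range over the alternatives 0.0307 to 0.661). Without control mice 2 and 3 the log2 fold changes were 0.49 for *Kcnf1* and 0.47 for *Kcng1*, and neither was a DEG.

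The 3 genes of the Kv4 family, which carry the rapidly inactivating A-type current of dendrites, went different ways. *Kcnd1* (X chromosome, 7822289 to 7838280, plus strand) had 11.1 to 12.2 in the 3 control mice and 16.0, 16.6 and 16.2 in AP1AR-DT_OE mice. These were tight groups with SDs of 0.594 and 0.317 (n = 3 each) and no overlap. *Kcnd1* rose by 0.47 on the log2 scale (SE 0.11, edgeR adjusted P = 0.295, range over the alternatives 0.0349 to 0.661) and was a DEG under each of the 16 alternatives.

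*Kcnd2*, the most abundant of the 3 per length, had 76.0, 81.7 and 106 in control and 72.5, 52.7 and 64.6 in AP1AR-DT_OE mice. The groups came close at control 1 and library A but did not overlap. *Kcnd2* fell by 0.47 (SE 0.17, edgeR adjusted P = 0.296) and was not a DEG without control mice 2 and 3 (log2 fold change -0.26), without control 3, without library B, without library C and with correction for GC content. *Kcnd3* was at 105, 99.3 and 89.5 in control and 83.2, 91.6 and 109 in AP1AR-DT_OE mice, which overlap, with a log2 fold change of -0.05 (SE 0.12). The ratio of *Kcnd1* to *Kcnd2* within each mouse was 0.158, 0.150 and 0.105 in control and 0.220, 0.315 and 0.251 in AP1AR-DT_OE mice.

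The *Kcnip* genes encode calcium-binding proteins that attach to Kv4 channels and set their surface level and inactivation. *Kcnip2* had 116, 67.8 and 83.2 in control and 158, 121 and 129 in AP1AR-DT_OE mice. Library B stood only just above control 1. *Kcnip2* rose by 0.61 (SE 0.21, edgeR adjusted P = 0.295), a change that was 0.23 and no DEG without control mice 2 and 3. It was also no DEG without control 2, without control 3, without library A and with correction for GC content.

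*Kcnip4* was at 48.2, 39.2 and 63.2 in control and 32.6, 33.1 and 36.9 in AP1AR-DT_OE mice. All 3 AP1AR-DT_OE values were below the lowest control, and their SD was 2.36 against 12.1 in control (n = 3 each). *Kcnip4* fell by 0.55 (SE 0.18, edgeR adjusted P = 0.295), and by 0.49 as a DEG without control mice 2 and 3. The call was lost without library A, without library B and with correction for GC content. *Kcnip3*, which also acts as a transcriptional repressor, had a log2 fold change of 0.20 (edgeR adjusted P = 0.451). The ratio of *Kcnip2* to *Kcnip4* was 2.42, 1.73 and 1.32 in control and 4.83, 3.65 and 3.49 in AP1AR-DT_OE mice. This pair and the other ratios were chosen after their values were seen and were not tested.

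*Kcnh3* and *Kcnh4* encode pores of the ELK subfamily, slow voltage-gated channels of forebrain neurons. *Kcnh3* had 45.4, 10.4 and 24.5 in control and 121, 84.0 and 31.6 in AP1AR-DT_OE mice, and library C lay within the control range. It rose by 1.56, the largest change among the members, with a standard error of 0.62 (edgeR adjusted P = 0.316). *Kcnh4* was lower in level, at 5.21, 3.49 and 1.82 in control and 14.7, 7.90 and 5.16 in AP1AR-DT_OE mice, again with library C inside the control range. Its log2 fold change was 1.40 (SE 0.49, edgeR adjusted P = 0.296). *Kcnh8*, the other ELK gene, went the other way with overlapping groups, with a log2 fold change of -0.86 (SE 0.49, edgeR adjusted P = 0.428). It had 1.79, 3.19 and 2.06 in control and 1.11, 0.612 and 2.17 in AP1AR-DT_OE mice.

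*Kcnh3* was lowest in control 2, *Kcnh4* was lowest in control 3, and both were highest in library A. Those mice had the 2 lowest sums and the highest sum of striatal markers. The order was not kept between library B and either control 1 or library C. The striatal sums of library B, control 1 and library C were 504, 795 and 545. *Kcnh3* was at 84.0, 45.4 and 31.6 in these mice and *Kcnh4* at 7.90, 5.21 and 5.16. For *Kcnh4* it was also not kept between controls 2 and 3, at 3.49 and 1.82 with striatal sums of 164 and 317. The part of regional make-up in these differences was not tested. Without control mice 2 and 3, the log2 fold changes of *Kcnh3* and *Kcnh4* were 0.80 and 0.83, and neither was a DEG. Neither was one without control 2, without control 3 or without library A, and *Kcnh3* was no DEG without library B either. *Kcnh2*, the ERG gene with the highest level of the family, was at 72.0 to 82.5 in control and 77.3 to 81.8 in AP1AR-DT_OE mice, with a log2 fold change of 0.07 (SE 0.09).

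The other voltage-gated families had no DEG. In the *Kcna* family, whose channels keep axons from firing repeatedly, 0 of 6 tested members were DEGs, with log2 fold changes of -0.12 for *Kcna1*, 0.17 for *Kcna6* and 1.22 for *Kcna2* (SE 0.72). The *Kcnc* genes gave 0 of 4, although *Kcnc1* did not overlap, at 194.5, 224 and 190.0 in control against 230, 254 and 257.5 in AP1AR-DT_OE mice. Its log2 fold change of 0.28 (SE 0.10, edgeR adjusted P = 0.296) was under the fold threshold. *Kcnc2* was at -0.36 (SE 0.30), with control 3 at 126 and the other 5 mice at 55.6 to 72.8.

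The *Kcnq* genes underlie the M-current that acetylcholine suppresses, and 0 of 5 were DEGs. *Kcnq3* had a log2 fold change of -0.33 (SE 0.19, edgeR adjusted P = 0.434).

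**Figure D3:**
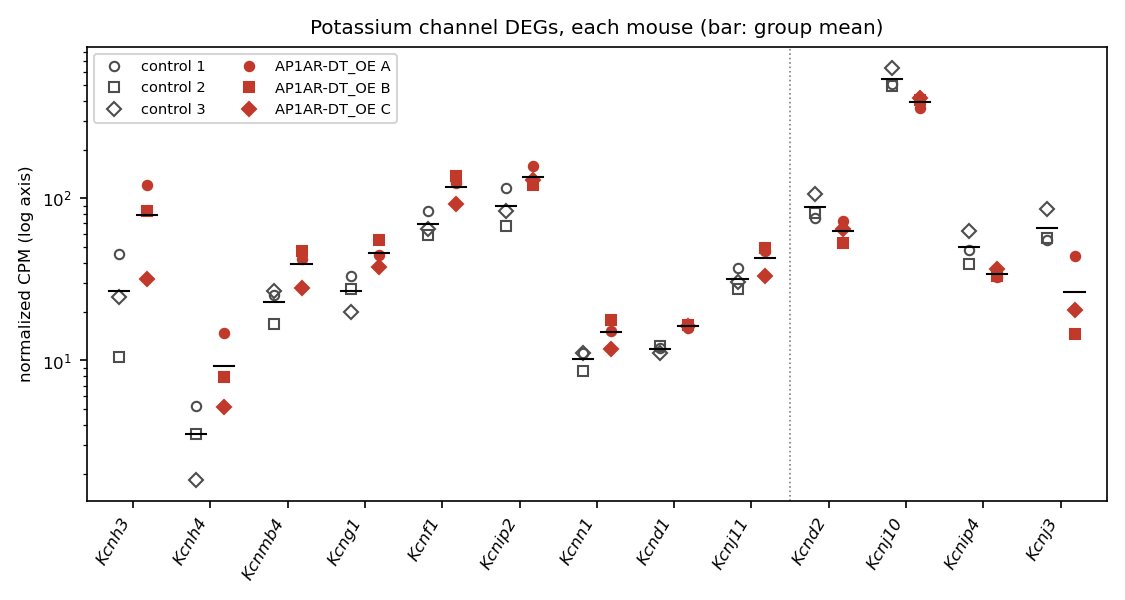
Normalized CPM (log axis) of the 13 potassium channel DEGs in each mouse, open symbols for the 3 control mice, filled symbols for the 3 AP1AR-DT_OE mice and bars for the group means. Genes left of the dotted line were higher and those right of it lower, and the symbols of the groups interleave for Kcnh3, Kcnh4 and Kcnj11.

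Of the calcium-activated channel genes, the accessory subunit *Kcnmb4* and the small-conductance pore *Kcnn1* rose. *Kcnmb4*, the neuronal beta subunit that slows the large-conductance channel, had 25.4, 16.8 and 26.7 in control and 42.5, 47.4 and 27.8 in AP1AR-DT_OE mice. Library C was only just above control 3. The log2 fold change was 0.77 (SE 0.25, edgeR adjusted P = 0.295), and *Kcnmb4* was not a DEG without library B or without control mice 2 and 3.

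Antisense genes *Kcnmb4os1* and *Kcnmb4os2* lie over 31.5% of the exon bases of *Kcnmb4*, and the library kit does not mark strand, so reads there could come from either. *Kcnmb4os2* was at 8.43, 6.04 and 9.77 in control and 15.4, 21.7 and 2.54 in AP1AR-DT_OE mice, highest in the same library as *Kcnmb4*. The pore gene *Kcnma1* was at 99.7, 87.5 and 175 in control and 104, 103 and 97.6 in AP1AR-DT_OE mice, with a log2 fold change of -0.25 (SE 0.25). The ratio of *Kcnmb4* to *Kcnma1* was 0.254, 0.192 and 0.153 in control and 0.411, 0.460 and 0.285 in AP1AR-DT_OE mice.

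*Kcnn1* was at 11.1, 8.64 and 11.1 in control and 15.3, 17.7 and 11.7 in AP1AR-DT_OE mice. It rose by 0.54 (SE 0.19, edgeR adjusted P = 0.297), with library C close above the controls. Without control mice 2 and 3 the log2 fold change was 0.42 and *Kcnn1* was no DEG. The call was also lost without control 2, without library A, without library B and with correction for GC content (0.35). *Kcnn2*, the related gene with the highest level, was at 0.09 (SE 0.15). *Kcnn3* was at 13.7, 63.1 and 58.5 in control and 48.4, 8.44 and 14.6 in AP1AR-DT_OE mice, so that the mice of each group differed among themselves by 4.60-fold and 5.73-fold. Its log2 fold change of -0.92 (SE 0.75) became 0.80 without control mice 2 and 3, and was -1.97 and a DEG without library A. The sodium-activated *Kcnt1* was at 0.39 (SE 0.27).

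The inward rectifiers included DEGs of both directions. *Kcnj10* (chromosome 1, 172341210 to 172374085, plus strand), which clears potassium into astrocytes and oligodendrocytes, had 507, 494 and 640.0 in control and 362, 402 and 417 in AP1AR-DT_OE mice. Every AP1AR-DT_OE value was below every control value. *Kcnj10* fell by 0.47 (SE 0.13, edgeR adjusted P = 0.295, range over the alternatives 0.0461 to 0.661). It remained a DEG under each of the 16 alternatives, with log2 fold changes from -0.53 to -0.33.

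Markers of the cells that express *Kcnj10* were measured beside it. The 5 astrocyte markers summed to 1813 to 2015 in control and 1703 to 1755 in AP1AR-DT_OE mice, and 1 of the 5, the water channel gene *Aqp4*, was a DEG (124, 130.0 and 238 against 113, 102 and 110.0). The astrocyte genes *Aldh1l1* and *Gja1* were at -0.05 and -0.09 on the log2 scale with overlapping groups. The 6 oligodendrocyte markers summed to 5048 to 10640 in control, highest in control 3, and 5081 to 5141 in AP1AR-DT_OE mice. The part of these cells in the *Kcnj10* difference was not tested. *Kcnj16*, whose product joins that of *Kcnj10* in astrocytes, was at 61.7, 68.5 and 48.3 in control and 46.7, 41.2 and 52.6 in AP1AR-DT_OE mice (log2 fold change -0.35, edgeR adjusted P = 0.348). *Kcnj9*, which starts 11.9 kb from *Kcnj10* on the opposite strand, had a log2 fold change of 0.02.

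*Kcnj3* (chromosome 2, 55435970 to 55598145, plus strand) encodes a G protein-gated rectifier through which transmitters such as GABA quiet neurons. It had 55.1, 56.6 and 86.5 in control and 44.3, 14.6 and 20.4 in AP1AR-DT_OE mice. Library A was near the controls, while libraries B and C were far below them. *Kcnj3* fell by 1.32, the largest decrease among the members (SE 0.41, edgeR adjusted P = 0.295), and was not a DEG without library C or without control mice 2 and 3 (log2 fold change -1.06). The antisense gene *Gm26794* covers 31.1% of its exon bases. *Kcnj6*, a frequent partner of *Kcnj3*, was at -0.16 (SE 0.23), and the ratio of *Kcnj3* to *Kcnj9* was 0.933 to 1.37 in control and 0.189 to 0.714 in AP1AR-DT_OE mice.

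*Kcnj11*, the pore of the ATP-sensitive channel, was at 36.9, 27.6 and 30.5 in control and 47.1, 49.1 and 33.2 in AP1AR-DT_OE mice. It rose by 0.45 (SE 0.18, edgeR adjusted P = 0.322) with library C inside the control range, and by 0.23 without control mice 2 and 3, where it was no DEG. It was also no DEG without control 2, without control 3, without library A, without library B and with correction for GC content. Its regulatory subunit *Abcc8*, the sulfonylurea receptor, had a log2 fold change of -0.13 (SE 0.17).

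Among the tandem-pore leak channels 0 of 11 tested genes were DEGs. *Kcnk3*, an acid-sensitive leak channel, had a log2 fold change of 0.3157, just under the fold threshold, and an edgeR adjusted P of 0.324. *Kcnk1*, *Kcnk2* and *Kcnk9* were at 0.09, 0.09 and -0.04. The *Kcnab* beta subunits gave 0 of 3, with *Kcnab2* at 0.39 (SE 0.25). *Kcne4* was at 0.31 (SE 0.49) and *Kcnu1*, a sperm channel gene, at 0.15 (SE 0.32), both under 3 normalized CPM in every mouse.

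Genes that work with potassium channels were read from a list of 30, with auxiliary proteins, HCN channels, pumps and cotransporters, of which 29 were tested. DEGs made up 5 of 29 (17.2% against 12.2% of all genes), 4 higher and 1 lower. *Amigo1*, which attaches to voltage-gated channels, had 119, 115 and 105 in control and 133, 149 and 142 in AP1AR-DT_OE mice, without overlap (log2 fold change 0.32, SE 0.09, edgeR adjusted P = 0.295). *Lrrc38*, an auxiliary subunit of the large-conductance channel, had 3.69, 1.87 and 2.78 in control and 9.28, 5.71 and 4.10 in AP1AR-DT_OE mice (log2 fold change 1.20, SE 0.37).

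Also higher were *Hcn2*, a pacemaker channel, by 0.39 (SE 0.14) and the neuronal potassium-chloride cotransporter *Slc12a5* by 0.35 (SE 0.13). *Kcnq1ot1*, the antisense RNA of the imprinted *Kcnq1* locus, fell by 0.61 (SE 0.21, edgeR adjusted P = 0.295). Among the sodium pump genes, the glial *Atp1b2* was at -0.23 and was no DEG, although its groups did not overlap. With correction for GC content *Hcn2* was at 0.031, *Slc12a5* at 0.15, *Amigo1* at 0.24 and *Kcnq1ot1* at -0.36. None of the 4 was then a DEG, while *Lrrc38* remained one at 0.98. Without library A *Lrrc38* was no DEG. *Kcnq1ot1* was also no DEG with correction for transcript length, without control 1, without control 2 and without library B. With control mice 2 and 3 left out *Kcnq1ot1* alone of the 5 was a DEG, and the log2 fold changes were 0.28 for *Hcn2*, 0.20 for *Slc12a5*, 0.25 for *Amigo1* and 0.79 for *Lrrc38*. The list then held 2 DEGs, and without library B 1, which was *Lrrc38*.

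GC content of the transcripts went with the direction of the members. The 9 higher DEGs had a median GC content of 57.0% (44.3% to 61.2%) and the 4 lower ones 44.1% (40.1% to 49.6%). Among all tested genes the same held, since the median log2 fold change was -0.21 for genes with 36.6% to 46.2% GC, the range of the 20 members lowest in GC, and 0.22 for those with 57.1% to 69.4%, the range of the 20 members highest in GC. In the highest range 16.5% of all genes and 4 of 20 members were DEGs that rose, and in the lowest range 14.9% of all genes and 3 of 20 members were DEGs that fell. *Kcnmb4*, at 44.3% GC, was the one higher DEG in the lowest range.

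After a smooth correction of each library for GC content, 7 members (8.86%) were DEGs, against 7.17% of all genes. These were *Kcnd1*, *Kcnf1*, *Kcng1*, *Kcnh4* and *Kcnmb4*, which rose, and *Kcnj10* and *Kcnj3*, which fell. The corrected log2 fold changes were 0.35 for *Kcnd1*, 0.64 for *Kcnf1*, 0.57 for *Kcng1*, 0.94 for *Kcnmb4*, -0.49 for *Kcnj10* and -1.15 for *Kcnj3*. Those of *Kcnip2* and *Kcnip4* became 0.47 and -0.28, neither of them a DEG.

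**Figure D4:**
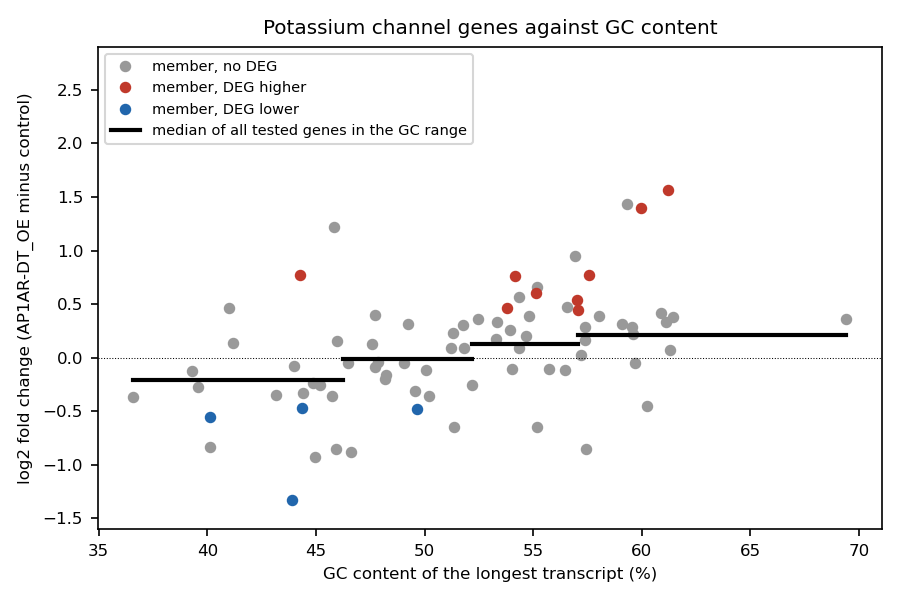
Log2 fold change of each tested member (AP1AR-DT_OE minus control) against the GC content of its longest transcript in percent, with thick lines for the median of all tested genes over each of 4 GC ranges. The lines climb from -0.21 to 0.22, and 8 of the 9 higher DEGs lie above 52% GC while all 4 lower DEGs lie below 50% GC.

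The split by GC content above is that of the transcripts, and promoter windows are a separate stretch of sequence. The windows shown are the lowest and the highest in GC of the 5 higher DEGs that had one, *Kcnf1* and *Kcnmb4*. Also shown are 2 of the lower DEGs, *Kcnd2* with the highest GC of that set and *Kcnj3* with the largest decrease. No window was found for the higher DEGs *Kcnd1*, *Kcng1*, *Kcnh3* and *Kcnj11*. RefSeq windows (GRCm38.p6, 250 bases before to 50 after the start) were found for 65 members, with 89 windows. CpG dinucleotides, where methylation can occur, are in capitals. *Kcnf1*, which rose, has 3 CpGs in its window and 53.0% GC, at chr12:17176839-17177138 on the minus strand. *Kcnmb4*, which also rose, has 48 CpGs and 79.0% GC, at chr10:116473474-116473773 on the minus strand. *Kcnj3*, which fell, has 10 CpGs and 57.7% GC, at chr2:55435720-55436019 on the plus strand. *Kcnd2*, which also fell, has 26 CpGs and 68.7% GC, at chr6:21215096-21215395 on the plus strand.
Kcnf1: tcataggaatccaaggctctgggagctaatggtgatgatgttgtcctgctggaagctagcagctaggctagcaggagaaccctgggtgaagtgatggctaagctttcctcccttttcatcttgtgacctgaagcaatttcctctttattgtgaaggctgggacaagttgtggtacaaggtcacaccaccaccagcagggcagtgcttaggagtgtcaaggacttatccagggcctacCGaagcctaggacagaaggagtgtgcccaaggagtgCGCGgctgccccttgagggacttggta
Kcnmb4: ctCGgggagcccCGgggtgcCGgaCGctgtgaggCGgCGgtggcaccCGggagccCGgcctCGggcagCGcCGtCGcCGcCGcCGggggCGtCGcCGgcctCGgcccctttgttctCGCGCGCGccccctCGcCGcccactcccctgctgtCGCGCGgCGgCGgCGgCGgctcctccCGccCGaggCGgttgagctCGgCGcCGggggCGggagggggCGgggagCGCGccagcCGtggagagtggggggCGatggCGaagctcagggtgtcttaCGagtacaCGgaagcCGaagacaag
Kcnj3: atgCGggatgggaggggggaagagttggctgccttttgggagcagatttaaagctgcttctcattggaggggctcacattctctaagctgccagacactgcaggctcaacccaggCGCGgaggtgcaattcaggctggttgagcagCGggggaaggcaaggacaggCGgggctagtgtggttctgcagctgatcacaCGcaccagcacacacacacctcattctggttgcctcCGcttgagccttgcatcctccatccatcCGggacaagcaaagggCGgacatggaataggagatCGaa
Kcnd2: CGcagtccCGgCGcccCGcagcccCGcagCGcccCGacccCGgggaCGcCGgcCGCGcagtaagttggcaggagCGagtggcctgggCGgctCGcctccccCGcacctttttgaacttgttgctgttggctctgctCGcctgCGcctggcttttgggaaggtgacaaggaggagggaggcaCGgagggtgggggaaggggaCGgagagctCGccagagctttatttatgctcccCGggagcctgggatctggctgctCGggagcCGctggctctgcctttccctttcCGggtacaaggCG

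Over all 32851 windows the median was 7 CpGs and 52.7% GC, and over the 89 member windows 9 CpGs and 58.3%. The 6 windows of 5 higher DEGs had a median of 17 CpGs (3 to 48) and 65.7% GC (53.0% to 79.0%). The 5 windows of the 4 lower DEGs had a median of 10 CpGs (7 to 26) and 59.7% GC (51.0% to 68.7%). The medians thus stood in the same order as the GC content of the transcripts while the ranges overlapped, and they are a description of the reference sequence, not of methylation in these mice.

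Spread between mice of one group was large for some members. The highest mouse was more than 2-fold above the lowest in control for 20 of 77 members with at least 10 counts in every mouse, and in AP1AR-DT_OE for 14. The median ratio of highest to lowest was 1.59 in control and 1.43 in AP1AR-DT_OE mice. *Kcna2*, an axonal Kv1 gene, had 134, 14.9 and 28.8 in control and 123, 139 and 151 in AP1AR-DT_OE mice. Control 1 was thus at the level of the AP1AR-DT_OE mice and controls 2 and 3 far below it, and the edgeR adjusted P was 0.445. *Kcna3*, its neighbour 63.1 kb away on the same strand, had a log2 fold change of -0.45.

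*Kcnj4*, a strong inward rectifier of forebrain neurons, had 67.8, 12.9 and 35.0 in control and 156, 109 and 48.2 in AP1AR-DT_OE mice. The order of the mice was that of *Kcnh3*, with library A highest and control 2 lowest, and the log2 fold change of 1.44 (SE 0.63) had an edgeR adjusted P of 0.339. *Kcng4* was at 28.1 in control 3 and at 6.39 to 10.2 in the other 5 mice. Over all 79 tested members, control 2 was the lowest mouse for 27 (34.2%, against 17.9% of all genes). Library B was the highest for 24 (30.4% against 19.3%) and control 3 for 23 (29.1% against 21.9%).

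**Figure D5:**
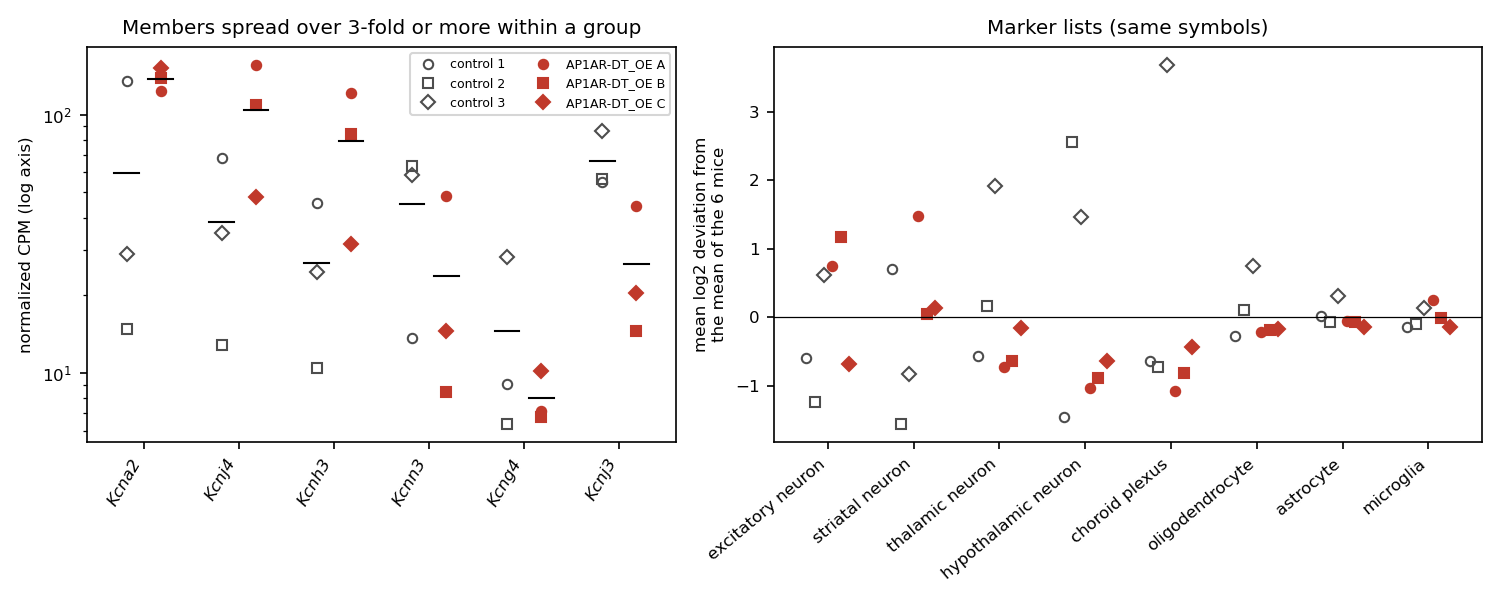
Left, normalized CPM (log axis) in each mouse of 6 members that differed at least 3-fold between mice of one group, with bars for the group means. Right, mean log2 deviation of each marker list from the mean of the 6 mice, with the same symbols. Control 3 stands apart for choroid plexus and thalamic markers, and controls 2 and 3 for hypothalamic markers (2.56 and 1.46). Kcna2 was at 14.9 in control 2 and 134 in control 1.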

How the data were processed

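RNA from brain was sequenced with the TruSeq RNA kit, which does not mark strand. In the paper's methods reads were mapped to GRCm38 with Bowtie2 and passed to StringTie, and a script turned coverage into whole-number counts per gene. The submitters' processing notes name mm9, TopHat2 2.0.4, HTSeq and edgeR 2.6.12 instead, and the difference could not be settled here. The authors deposited these counts without normalization, with their DESeq2 mean, log2 fold changes and P-values, which were not used. Counts from coverage are not whole read pairs, and counting error was not computed from them.

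Counts were tested in R 4.3.3 with edgeR 4.0.16 (filterByExpr, TMM factors, quasi-likelihood F-test, two-sided, Benjamini-Hochberg adjustment over 21844 genes). P-values measure the spread between 3 mice a group. Exact permutation tests used log2(normalized CPM + 0.5). Alternatives were DESeq2 1.42.0, limma-voom 3.58.1, other scalings and filters, corrections for GC content and transcript length by natural splines with 5 degrees of freedom as offsets, and leaving out mice. The fit was tested on simulated data. Coordinates, exons and GC content came from GENCODE vM21. Named were all DEGs, the member with the highest level per length of each family, a list of textbook members, and DEGs of the partner list. Other members named for wide spread, overlap or pairing were chosen after their values were seen. Some genes of this rule are not reported here by name and are counted only. The members and lists were chosen with earlier results of these data known. Tables and figures used Python 3.11.15, pandas 2.3.3 and matplotlib 3.10.9.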

Additional observations from a re-analysis of the deposited data

How the results depend on the processing

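No paired analysis was possible because the labels number the control mice 1 to 3 and the AP1AR-DT_OE mice 3 to 5, so that the groups share 1 number. With GC correction 7 members were DEGs (7.17% of all genes were), 5 higher and 2 lower, the partner list held 1 DEG and the groups did not overlap for 7 members (15.7% of all genes). With control mice 2 and 3 left out the values were 6 (7.59%), 4, 2, 2 and 38 (57.9%), where the last compares 1 control mouse with 3. Leaving out 1 mouse gave 7 (without library B) to 25 (without control 1) DEGs, 5 to 18 higher and 2 to 8 lower, where 6.33% to 15.6% of all genes were DEGs. It gave 1 to 7 DEGs in the partner list, and 20 to 35 members without overlap, against 27.6% to 39.8% of all genes. Under the 8 other alternatives these counts stayed within 1.5 times the reported ones. None of the 13 DEGs changed direction. *Kcnd1* and *Kcnj10* stayed DEGs under all 16 alternatives, and *Kcnf1* and *Kcng1* under all but the one without control mice 2 and 3.

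Direction turned for some named members that were not DEGs, among them *Kcnn3* and *Kcnc2*, reported at -0.92 and -0.36, and the cause was not tested. The log2 fold change of *Kcnk9* was 0.063 in limma-voom, 0.0029 with GC correction, 0.14 with length correction and 0.36 without control mice 2 and 3, and that of *Kcnd3* was 0.049 with length correction. With GC correction *Kcnh2* was at -0.19 and *Kcnn2* at -0.037. Without control mice 2 and 3, *Kcnc2* was at 0.20, *Kcnj6* at 0.27, *Kcnk2* at -0.16, *Kcnma1* at 0.026 and *Kcnn3* at 0.80. Leaving out 1 mouse moved *Kcnd3* from -0.15 to 0.034, *Kcnj6* from -0.33 to 0.033, *Kcnk1* from -0.064 to 0.28, *Kcnk9* from -0.26 to 0.47, *Kcna1* from -0.25 to 0.019, *Kcnc2* from -0.57 to 0.11, *Kcnk2* from -0.0245 to 0.23, *Kcnma1* from -0.43 to 0.13 and *Kcnu1* from -0.012 to 0.35.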

Other observations

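*Kcne2* and *Kcnj13*, the potassium channel genes left out as choroid plexus markers, were at 34.9 and 39.4 normalized CPM in control 3 and at most 0.723 and 0.538 in the other 5 mice. *Kcnd3os*, an antisense transcript at the *Kcnd3* locus chosen after its values were seen, was at 0.737, 0.864 and 0.941 in control and 1.19, 1.56 and 1.62 in AP1AR-DT_OE mice, with a log2 fold change of 0.78 (SE 0.30, edgeR adjusted P = 0.312). *Kcnd3* itself had a log2 fold change of -0.05. The library kit does not mark strand, so reads in any shared stretch could come from either gene.

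No relation was tested between the potassium channel genes and the regional markers.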
